A study of Rattus norvegicus with 19 samples.

Results

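The effect of potassium chloride (KCl), which depolarizes neurons, on enhancer-associated RNA was described as far as neurons cultured from 3 brain regions had it in common. It was estimated as 1 KCl coefficient over all 19 libraries, 9 with KCl and 10 with vehicle, with the region (cortex, hippocampus or striatum) held as a covariate. All 19 samples of the series entered the fit. Of 27538 transcriptionally active putative enhancers (TAPEs), the 1870 with a mean of at least 0.05 CPKM over the 19 libraries were tested. A TAPE is a stretch of intergenic open chromatin with RNA-seq reads on both strands, and CPKM is reads per kilobase of TAPE per 1000000 reads of the library.

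Cultures came from Sprague-Dawley rat tissue taken at embryonic day 18 and were grown for 11 days in vitro. They then received KCl or plain neurobasal medium (vehicle) for 1 h, and total RNA without ribosomal RNA was sequenced with strand kept. Each region had 3 KCl and 3 vehicle libraries, except that striatum had 4 vehicle libraries by its sample titles. For striatum, the supplementary methods of the study have the sizes of the KCl and vehicle groups the other way round, and grouping here followed the titles. For KCl, the sample labels state 25 mM but the series text 10 mM. Vehicle replicate 3 of cortex is striatal by its tissue label and cortical by its title, which was used. With this library counted as cortex, libraries of the same group correlated at 0.709 to 0.790 and libraries of different regions at 0.290 to 0.654. Its correlations with the other cortex vehicle libraries are part of the first range, and so lie above every correlation between regions. Such cultures hold neurons of several kinds together with some glia, and in bulk RNA a change in the number of cells of a type cannot be told apart from a change in RNA per cell.

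Raised extracellular potassium depolarizes the membrane, opens voltage-gated calcium channels and starts kinase cascades that reach the nucleus. Factors already present in the cell, among them CREB and serum response factor, then switch on immediate early genes without new protein synthesis. Many of these genes encode transcription factors of the AP-1 (Fos and Jun), EGR and NR4A families, and effector genes for synapses and secreted peptides follow. Active enhancers are themselves transcribed into short, mostly unstable enhancer RNA (eRNA), often from both strands, so RNA over an enhancer serves as a readout of its activity.

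Some of the responding TAPEs carry designed sequences of the study, and these are shown because they tie the measured intervals to elements with a name. The guide RNA targets for CRISPR activation named for the Fos, Fosb and Nr4a1 enhancers fall inside 5 of the TAPEs described here. Each target is written 5′ to 3′ as designed, with its Rn6 position.
Fos enhancer1, chr6:109262269, in the TAPE at chr6:109261263-109264039: gaggagactaactgagcagc
Fos enhancer2, chr6:109281666, in the TAPE at chr6:109280836-109283088: gcctgttgtcatgactgccg
Fos enhancer3, chr6:109312925, in the TAPE at chr6:109311940-109315695: gggtgggggcctctgacggg
Fosb enhancer, chr1:80231959, in the TAPE at chr1:80230915-80233062: gttgtttgtccccggccagg
Nr4a1 enhancer, chr7:142890863, in the TAPE at chr7:142890056-142891915: gtgtgtggaaacttgtagcg
The Fosb element has 2 further targets at positions 80231980 and 80232050 and the Nr4a1 element 1 more at 142891090, all within the same TAPEs.

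Stretches of 150 nt chosen by the study from 2 of the Fos eRNAs were also designed, to be tethered to DNA as accessory RNA. They are shown as examples of eRNA sequence, and were not placed on a genome here. In the first, capitals mark the forward primer site and the complement of the reverse primer of the eRNA1 RT-qPCR assay. The second holds neither primer of the eRNA3 assay. The guanine and cytosine content is 52.0% in the first and 52.7% in the second.
Fos eRNA1: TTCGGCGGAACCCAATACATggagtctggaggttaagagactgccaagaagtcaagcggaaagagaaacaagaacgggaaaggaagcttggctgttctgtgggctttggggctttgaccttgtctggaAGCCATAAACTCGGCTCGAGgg
Fos eRNA3: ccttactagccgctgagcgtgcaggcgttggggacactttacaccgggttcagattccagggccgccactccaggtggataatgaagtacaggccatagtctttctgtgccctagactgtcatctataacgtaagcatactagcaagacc

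Across the 1870 TAPEs, 47 were higher with KCl (2.51%) and 37 were lower (1.98%) at an adjusted p under 0.05 in limma. The risers changed by 0.48 to 1.91 on the scale of log2(CPKM + 0.05), with a median of 0.82. Fallers changed by -0.97 to -0.38, with a median of -0.60. Differences on this scale understate the change of weakly transcribed TAPEs. At an unadjusted p under 0.05 there were 315 TAPEs, 147 higher and 168 lower. Each library was centred on its own median before the fit. Without centring, the median effect over all tested TAPEs was -0.13 and the split became 31 higher and 97 lower, and limma voom on the recovered reads, also uncentred, gave 43 and 96. Scaling to the reads in TAPEs gave 39 and 37, and voom with median centring, added after the data were seen, 57 and 45. All 37 fallers and 31 of the 47 risers were called both with and without centring. Leaving out 1 library at a time gave 31 to 47 risers and 17 to 33 fallers, with the fewest risers without striatum KCl replicate 5 (31, with 19 fallers) and the fewest fallers without striatum KCl replicate 1 (17, with 33 risers). Without the library with the conflicting tissue label there were 38 and 25. Reads in TAPEs made up 0.0932 to 0.105% of a library's reads with KCl and 0.103 to 0.124% with vehicle.

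**Figure D1:**
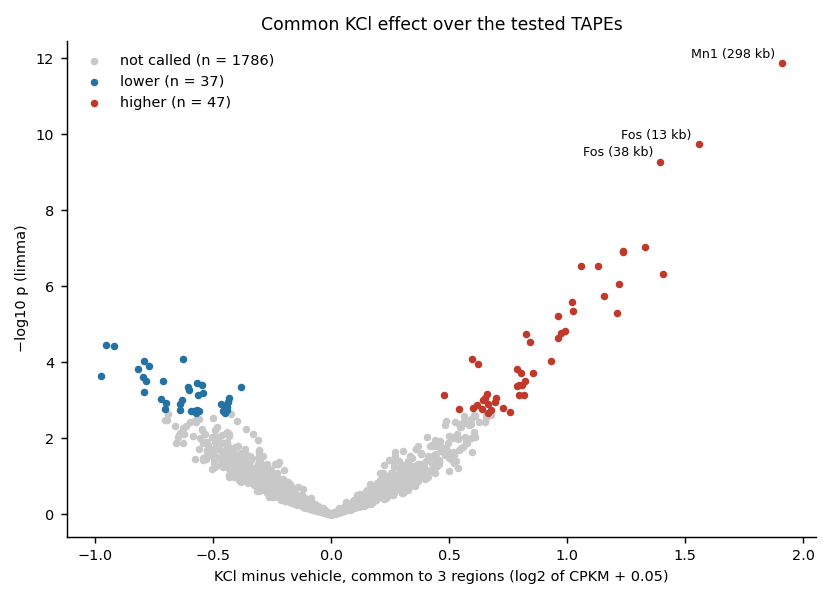
Each point is 1 of the 1870 tested TAPEs, with the common KCl effect on the x axis (log2 of CPKM + 0.05, KCl minus vehicle) and −log10 of the limma p on the y axis. The 47 risers (red) reach 1.91 and the 37 fallers (blue) reach -0.97. The 3 labelled TAPEs are named by a gene and the distance to its start.

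The strongest changes near a known activity gene were at Fos, the immediate early gene whose product pairs with Jun proteins to form AP-1. The TAPE at chr6:109311940-109315695, 13.4 kb from the Fos start and targeted by the enhancer3 guide above, had 0.0386, 0.0731 and 0.142 CPKM as the lowest, median and highest vehicle values and 0.177, 0.297 and 0.398 with KCl. Every KCl library thus lay above every vehicle library. The common effect was 1.56 ± 0.17 (SE, adjusted p = 1.71e-07), a 2.94-fold rise of CPKM + 0.05, which is less than the rise of CPKM itself. Taken by region, hippocampus had 1.12 ± 0.29, below cortex with 1.78 ± 0.29 and striatum with 1.74 ± 0.27, and the test for a difference between regions gave an unadjusted p of 0.208.

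At the second Fos element, chr6:109261263-109264039, 37.8 kb from the Fos start and targeted by the enhancer1 guide, basal RNA differed between regions. Striatum vehicle averaged 0.178 ± 0.0305 CPKM (SD, n = 4), cortex vehicle 0.0107 ± 0.000809 (n = 3) and hippocampus vehicle 0.00642 ± 0.00637 (n = 3). With KCl the averages became 0.628 ± 0.0601, 0.0951 ± 0.0184 and 0.0583 ± 0.0269 in the same order (n = 3 each), so the groups did not overlap in any region although striatum vehicle exceeded cortex KCl. The common effect was 1.39 ± 0.16 (adjusted p = 3.34e-07), and the effects in cortex, hippocampus and striatum were 1.32, 1.09 and 1.72. The 0.05 added to CPKM shrinks estimates where levels are low, so this order of regions differs from that of the CPKM ratios. The third element, chr6:109280836-109283088 at 18.5 kb, under the enhancer2 guide, had a median of 0.0705 CPKM with vehicle and 0.117 with KCl. Its common effect of 0.66 ± 0.20 gave an adjusted p of 0.0533. Striatum had a value of 1.20 ± 0.30, hippocampus 0.80 ± 0.32 and cortex -0.11 ± 0.32, with an unadjusted p of 0.0166 for their difference (adjusted p = 0.447).

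Fosb encodes another AP-1 partner. Within 100 kb of its start, 2 TAPEs rose. The nearer, chr1:80230915-80233062 at 10.3 kb, ran from 0.0506 through a median of 0.113 to 0.180 CPKM with vehicle and from 0.109 through 0.295 to 0.580 with KCl. In each region its KCl libraries lay above the vehicle ones after centring, and the effect was 1.16 ± 0.20 (adjusted p = 0.000304). Striatum KCl was uneven, with 0.580, 0.197 and 0.170 CPKM in its 3 libraries. The farther, chr1:80253248-80255806 at 32.8 kb, had medians of 0.0620 and 0.173 CPKM and an effect of 1.02 ± 0.18 (adjusted p = 0.000408). It lies 2.45 kb from the start of Ercc1, a DNA repair gene whose own profile gave an adjusted p of 0.463. Between them lay 2 tested TAPEs that were not called, chr1:80244059-80246180 at 23.4 kb with an effect of 0.59 ± 0.19 (adjusted p = 0.0630) and chr1:80237657-80239994 at 17.1 kb with 0.44 ± 0.16 (adjusted p = 0.141), the latter named after its values were seen.

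Nr4a1 encodes an orphan nuclear receptor that is itself an immediate early factor. A run of 3 TAPEs, 14.8 to 24.8 kb from its start and separated by gaps of 2.46 and 3.56 kb, rose together. The one under the guides, chr7:142890056-142891915, had a vehicle range of 0.0649 to 0.155 CPKM and KCl means of 0.257 ± 0.0394 in cortex, 0.117 ± 0.0385 in hippocampus and 0.440 ± 0.143 in striatum (SD, n = 3 each). Hippocampus KCl overlapped hippocampus vehicle, which had a mean of 0.0916 ± 0.0123. The common effect was 1.22 ± 0.20 (adjusted p = 0.000169), made up of 1.04 ± 0.28, 0.38 ± 0.28 and 2.11 ± 0.26, and the difference between regions gave an unadjusted p of 0.000352 (adjusted p = 0.156). At chr7:142879678-142882218 the effect was 0.82 ± 0.20 (adjusted p = 0.0162), with 1.17, -0.10 and 1.32 in cortex, hippocampus and striatum. The start of Grasp, at 11.2 kb, lies nearer to this TAPE than that of Nr4a1, at 24.8 kb. At chr7:142884677-142886498 the effect was 0.70 ± 0.19 (adjusted p = 0.0304). That last call was kept in 13 of the 19 fits that each left out 1 library, and was lost without centring (adjusted p = 0.0725).

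Junb, another AP-1 gene, had a TAPE 7.13 kb from its start, chr19:26100689-26103090, with medians of 0.0933 CPKM in vehicle and 0.167 in KCl. The highest vehicle library reached 0.132 and the lowest KCl library 0.0852. Its effect was 0.84 ± 0.17 (adjusted p = 0.00279), from 0.35 ± 0.28 in cortex to 1.38 ± 0.26 in striatum. The start of Hook2 lies nearer to this TAPE, at 4.95 kb. Sik1, a kinase that restrains CREB-driven transcription, had a TAPE 57.1 kb from its start, chr20:10622072-10624253. Vehicle ran from 0.0166 through 0.148 to 0.323 CPKM and KCl from 0.162 through 0.278 to 0.848. The pooled ranges overlapped, since striatum was high under both treatments, but within each region they did not. Its effect of 1.24 ± 0.18 (adjusted p = 3.97e-05) was 1.24, 1.19 and 1.28 in cortex, hippocampus and striatum. The nearest gene start to this TAPE is that of LOC102554931, at 29.3 kb.

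In all, 30 tested TAPEs lay within 100 kb of the start of 1 of the 57 activity genes listed. Of these, 9 were higher and 0 lower, beside 2.51% and 1.98% of all tested TAPEs, and their median effect was 0.32 beside -0.00 over all. The 9 belonged to 5 genes (Fos, Fosb, Junb, Nr4a1 and Sik1). The AP-1 genes held 11 of the tested TAPEs, 5 of them higher, and the NR4A genes 5, with 3 higher. EGR and KLF genes had 2, the other early regulators 7 and the synaptic and secreted effectors 2, with 0 called in each. The tested TAPE near Arc, a synaptic immediate early gene, had an effect of 0.38 at 6.66 kb (adjusted p = 0.360), that near Egr1 -0.02 at 34.6 kb (adjusted p = 0.972), and that near Jund 0.61 at 14.1 kb (adjusted p = 0.126).

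**Figure D2:**
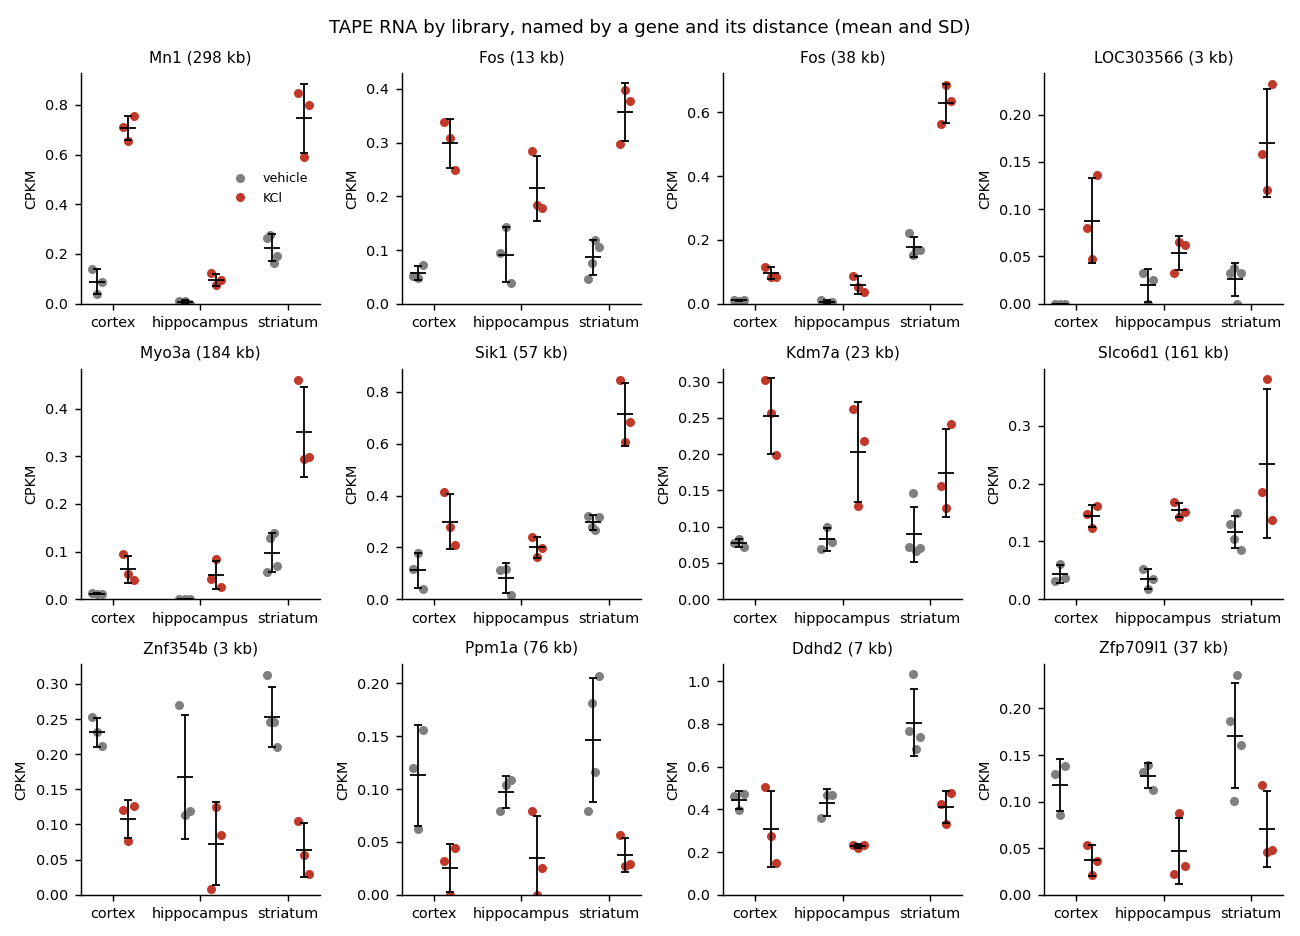
CPKM of 12 TAPEs in each of the 19 libraries, by region (x axis) and treatment (grey vehicle, red KCl), with black bars for mean and SD. The first 8 panels are the risers with the smallest adjusted p and the last 4 the fallers. At the Fos TAPE 13 kb away, KCl libraries sit between 0.177 and 0.398 and vehicle libraries between 0.0386 and 0.142.

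The largest common effect of all was at chr12:50950307-50953159, whose nearest gene, at 298 kb, is Mn1, a transcriptional co-regulator. With vehicle the 3 cortex libraries held 0.140, 0.0387 and 0.0885 CPKM, the 3 of hippocampus 0.0124, 0.0121 and 0, and the 4 of striatum 0.265, 0.275, 0.163 and 0.194. With KCl these became 0.71, 0.655 and 0.753 in cortex, 0.123, 0.0742 and 0.0934 in hippocampus, and 0.847, 0.588 and 0.799 in striatum. Each region's groups were fully separated, at levels that differed greatly between hippocampus and the others. The effect was 1.91 ± 0.17 (adjusted p = 2.57e-09), a 3.76-fold rise of CPKM + 0.05, which is less than the rise of CPKM itself. Region estimates were 2.58 ± 0.27, 1.5 ± 0.27 and 1.69 ± 0.25, and the added 0.05 shrank that of hippocampus most. The test for a difference between regions gave an unadjusted p of 0.0170 (adjusted p = 0.447). Another riser, at chr12:50916240, lay 31.3 kb away.

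Several other leading risers had no listed activity gene within 100 kb. The TAPE at chr5:72406852-72409245 lies 120 kb from Klf4, which encodes a zinc finger factor induced by many stimuli. Its median went from 0.0348 to 0.111 CPKM, with striatum ranges overlapping, for an effect of 1.21 ± 0.22 (adjusted p = 0.000687). At chr4:66977035-66981159, 23.4 kb from the histone demethylase gene Kdm7a, vehicle ranged from 0.0669 to 0.147 CPKM and KCl from 0.125 to 0.303. That effect was 1.06 ± 0.16 (adjusted p = 7.15e-05), with 1.31, 1.07 and 0.83 in cortex, hippocampus and striatum.

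The TAPE at chr10:90188422-90190566, 3.13 kb from LOC303566, had no read in 5 of 10 vehicle libraries and none in any of the 3 of cortex. With KCl it held 0.0326 to 0.232 CPKM and at least some reads in all 9. The fit gave 1.33 ± 0.19 (adjusted p = 3.97e-05), from 131 reads in all libraries together. Likewise chr17:88778236-88780735, 184 kb from Myo3a, a motor protein gene, had no read in the 3 hippocampus vehicle libraries and 0.0511 ± 0.0301 CPKM there with KCl (SD, n = 3). Its common effect was 1.24 ± 0.18 (adjusted p = 3.97e-05), and a neighbour that also rose lay 2 kb off. At chr9:105029705-105033771, 161 kb from Slco6d1, the effect was 1.13 ± 0.18 (adjusted p = 7.15e-05) and at chr1:52823514-52827922, 69.1 kb from Tbxt, 1.03 ± 0.19 (adjusted p = 0.000669). The risers near LOC303566, Myo3a, Tbxt and Klf4 given here and above had vehicle means under 0.05 CPKM. They passed the filter for testing only through their KCl values.

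One leading riser was not common to the regions. RNA of chr4:77413446-77416130, 67.8 kb from Ezh2, a histone methyltransferase gene, was 0.332 ± 0.0359 CPKM in cortex with vehicle and 1.73 ± 0.181 with KCl, and 0.145 ± 0.0231 and 0.715 ± 0.187 in hippocampus (SD, n = 3 each). Striatum vehicle libraries averaged 0.424 ± 0.129 (n = 4) and the KCl ones 0.370 ± 0.0572 (n = 3). The effects were 2.30 ± 0.21, 2.12 ± 0.21 and -0.00 ± 0.20, and the test of their difference gave an adjusted p of 1.17e-05. This was the single TAPE of 1870 called for a difference between regions (0.0535%), with 156 at an unadjusted p under 0.05. Its average of 1.41 therefore describes no region. The Ezh2 profile gave an adjusted p of 0.504.

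**Figure D3:**
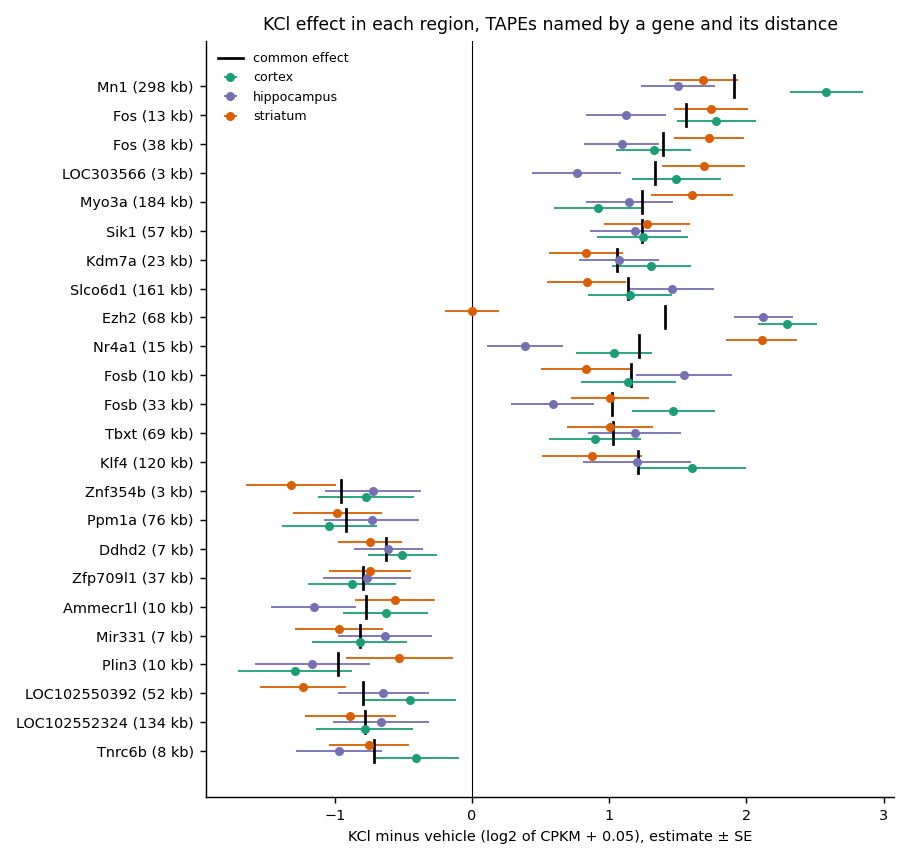
KCl minus vehicle in cortex, hippocampus and striatum (log2 of CPKM + 0.05, estimate ± SE) for the 14 named risers and 10 named fallers, each named by a gene and its distance. Black bars mark the common effect. In the riser near Ezh2 the striatum estimate lies at -0.00 while cortex and hippocampus lie at 2.30 and 2.12.

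The TAPEs that fell had a median change of -0.60, beside 0.82 for risers, and this order of sizes turned without centring, where the medians were -0.73 and 0.69. The smallest p was at chr10:36421794-36423763, 2.85 kb from the zinc finger gene Znf354b. Vehicle ran from 0.114 through 0.238 to 0.313 CPKM and KCl from 0.00888 through 0.0846 to 0.126. Only 1 pair of ranges, in hippocampus, overlapped after centring, and the effect was -0.95 ± 0.20 (adjusted p = 0.00321). At chr6:94352649-94353981, 75.8 kb from the phosphatase gene Ppm1a, the median fell from 0.113 to 0.0288 CPKM, with 2 KCl libraries at 0 reads, and the effect was -0.92 ± 0.19 (adjusted p = 0.00321).

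The best measured of the leading fallers, with 636 reads, was chr16:71082118-71083404, 7.28 kb from Ddhd2, which encodes a phospholipase. Its means were 0.444 ± 0.0413, 0.430 ± 0.0631 and 0.805 ± 0.156 CPKM with vehicle in cortex, hippocampus and striatum, and 0.308 ± 0.180, 0.228 ± 0.00747 and 0.411 ± 0.0746 with KCl. In cortex 1 KCl library, at 0.502, exceeded all vehicle libraries. The effect was -0.63 ± 0.14 (adjusted p = 0.00657). Near Tnrc6b, which acts in microRNA silencing, chr7:121921528-121923387 fell by 0.71 ± 0.18 on the log2 scale (adjusted p = 0.0162). The remaining named fallers lay near Zfp709l1, Ammecr1l, Mir331, Plin3, LOC102550392 and LOC102552324, with effects of -0.97 to -0.77. Of all 37 fallers, 13 were called in each of the 19 fits that left out 1 library, against 27 of the 47 risers.

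The common fit gathered TAPEs that no single region called. In cortex, hippocampus or striatum alone, 33 TAPEs were called in at least 1 region, and 23 of these were among the 84 common calls. The other 61 common calls, 28 risers and 33 fallers, passed in no region alone, where each fit had 6 or 7 libraries. Direction was the same in all 3 regions for 43 of the 47 risers and 36 of the 37 fallers, beside 35.7% of the 1870. Since the common effect is an average of those estimates, this count is tied to the call. On the scale of log2(CPKM + 0.05), which shrinks changes at low levels, the median riser changed by 0.99 in striatum, 0.84 in cortex and 0.72 in hippocampus. The median faller changed by -0.64, -0.51 and -0.63 in that order. After centring, KCl and vehicle did not overlap in any of the 3 regions at 14 risers and 1 faller, beside 0.802% of all tested TAPEs in the upward and 0.0535% in the downward direction. An unadjusted p under 0.05 for a difference between regions was found in 14 risers and 3 fallers, and in 8.34% of the 1870.

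Other properties of the TAPEs were not taken from the KCl contrast and are given as descriptions. With treatment held as a covariate, level differed between regions over the 19 libraries at 27 of 47 risers (57.4%), 15 of 37 fallers (40.5%) and 48.3% of all tested TAPEs (adjusted p under 0.05, limma). Fallers had a higher mean level, 0.170 CPKM at the median, than risers at 0.0961 and all tested TAPEs at 0.0933. They were closer to genes, with a median of 20.9 kb to the nearest start beside 36.1 kb for risers and 40.6 kb for all. Within 10 kb of a start lay 35.1% of fallers, 19.1% of risers and 18.3% of all, and the median number of genes within the deposited distance of 1 Mb was 24, 16 and 14. Riser length was 2287 bp at the median, faller length 1950 bp and that of all tested TAPEs 2006 bp. Vehicle means alone reached 0.05 CPKM in 29 of the 47 risers, as they did in 1775 of all 1870 tested TAPEs, so the other risers entered the test through their KCl values. KCl means reached it in 30 of the 37 fallers and 1636 of all tested, so the other fallers entered through vehicle. Pairs of called TAPEs less than 100 kb apart, with no other called TAPE between them, numbered 6, all of them riser with riser, at the Fos, Fosb, Nr4a1, Mn1 and Myo3a loci.

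Gene RNA from the same libraries was read from profiles recovered for 16499 of 17715 gene symbols. Each profile is in units of the gene's own SD over the 19 libraries, so it gives direction and order but no fold change and no level. Unlike the TAPE values, the gene CPKM behind the profiles was not centred on a library median. An exact permutation test within regions called 1020 genes higher (6.18%) and 2542 lower (15.4%) at an adjusted p under 0.05. The test allows no p below 7.14e-05, and 639 genes reached it. How the split into higher and lower genes depends on library scaling was not tested. Of 55 recovered activity genes, 52 were higher and 0 lower, with a median difference of 1.60 SD, beside -0.15 over all genes.

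All 7 AP-1 genes were higher. Fos profile values lay between -0.975 and -0.617 SD with vehicle and between 0.307 and 1.62 SD with KCl, a difference of 1.85 SD (exact permutation p = 7.14e-05, adjusted p = 0.00184). Jund, Junb and Jun differed by 1.87, 1.85 and 1.84 SD. All 8 EGR and KLF genes were higher, from Egr3 at 1.87 SD to Klf10 at 0.47 SD. Egr1 values were -1.04 to -0.473 SD with vehicle and 0.0362 to 1.65 SD with KCl, while Klf2 was separated in cortex and hippocampus but differed by -0.03 SD in striatum. The 3 NR4A genes differed by 1.71 (Nr4a1), 1.76 (Nr4a2) and 1.9 SD (Nr4a3). In all 3 families together, 16 of 18 genes had every KCl library above every vehicle library within each region, as had 375 of the 16499 genes. Genes separated in the downward direction are not in that count.

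The other early regulators were higher in 10 of 10 cases, among them the neuron-specific factor Npas4 at 1.74 SD, Atf3 at 1.80 SD and the CREB antagonist gene Crem at 1.60 SD. Of 13 recovered feedback genes, 11 were higher, led by Gadd45g at 1.86 SD, Sik1 at 1.69 SD and the phosphatase genes Dusp5 and Dusp1 at 1.66 and 1.56 SD. Dusp16 had a difference of 2.91 SD in cortex and of 0.08 and -0.45 SD in hippocampus and striatum, for an adjusted p of 0.226, and Dusp2 was at -0.18 SD (adjusted p = 0.608). Among effectors, 13 of 14 were higher. The neuropeptide-processing enzyme gene Pcsk1 differed by 1.79 SD, Arc by 1.64 SD and Homer1 by 1.61 SD. The growth factor gene Bdnf differed by 1.63 SD in cortex, 1.41 in hippocampus and 0.02 in striatum, though its striatum libraries did not overlap. Inhba was at -0.02 SD (adjusted p = 0.888).

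**Figure D4:**
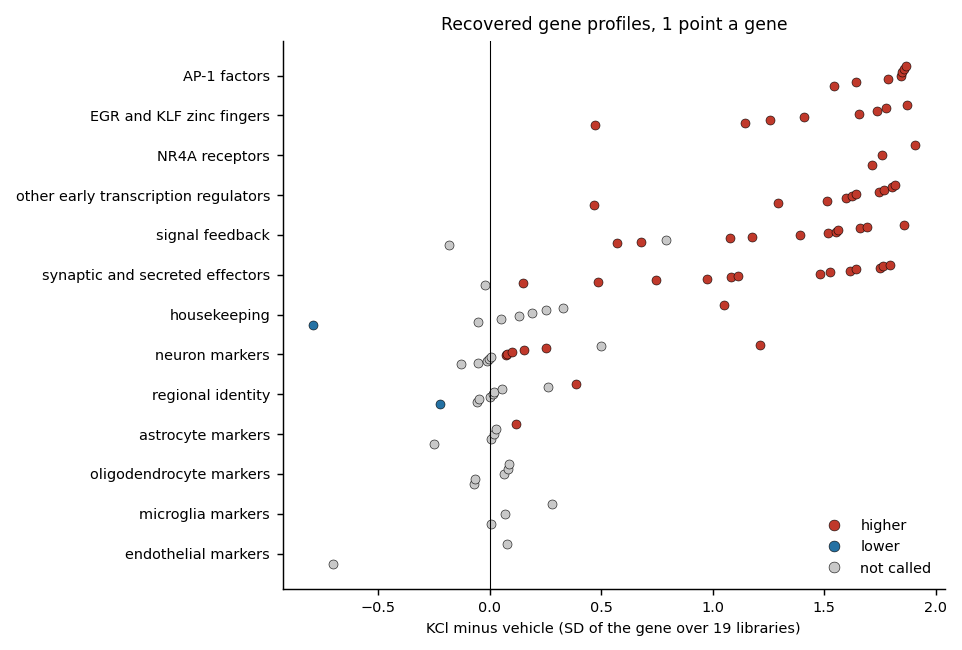
Difference between KCl and vehicle (x axis, SD of each gene over the 19 libraries, regions weighted as in the test) for each gene of 13 lists, 1 point a gene. In the 6 activity lists at the top 52 of 55 genes are called higher, and in the 7 lists below 9 of 44 are higher and 2 lower. Over all recovered genes 6.18% are called higher and 15.4% lower.

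Markers of cell types and housekeeping genes served as comparison. Of 12 neuron markers 6 were higher and 0 lower, beside 6.18% higher and 15.4% lower over all recovered genes. Snap25, a synaptic vesicle fusion protein gene, differed by 1.21 SD, and the other 5 by 0.07 to 0.25 SD. Housekeeping genes gave 1 higher (Ywhaz, 1.05 SD), 1 lower (Tbp, -0.79 SD) and 6 not called. The 9 genes of regional identity gave 1 higher, 1 lower and 7 not called. Both called ones are markers of striatal projection neurons, Drd1 at 0.39 SD, separated in all 3 regions, and Foxp1 at -0.22 SD (adjusted p = 0.00184 and 0.00833, exact permutation). Astrocyte markers were called in 1 of 5 cases, Slc1a3 at 0.12 SD (adjusted p = 0.0496), and 0 of 5 oligodendrocyte, 0 of 3 microglial and 0 of 2 endothelial markers were called. In lists this short, and at those shares over all genes, 0 calls do not show an absence of change. Averaged over each list, astrocyte and oligodendrocyte profiles overlapped between treatments in every region, the former at 0.488 to 0.680 SD in cortex KCl and 0.562 to 0.620 in cortex vehicle, and at -1.08 to -0.922 and -1.05 to -0.931 in striatum. In hippocampus 4 of the other lists did not overlap. The mean of the 3 microglial markers was -0.611 to 0.279 SD with vehicle and 1.04 to 1.18 with KCl, and that of the 2 endothelial markers 0.972 to 2.26 with vehicle and 0.311 to 0.462 with KCl. Of these Cldn5 differed by -2.29 SD there, without overlap, and all 3 KCl libraries lay at its lowest value, -0.668 SD. Among the microglial markers, Cx3cr1 and P2ry12 had their median at their lowest value, -0.544 and -0.5 SD, with either treatment. Few libraries therefore set the microglial mean. Housekeeping genes averaged 0.375 to 0.786 SD with vehicle and 0.854 to 0.932 with KCl, and genes of regional identity -0.467 to -0.428 and -0.395 to -0.358. In striatum the neuron markers were apart, at -0.546 to -0.212 SD with vehicle and -0.0319 to 0.146 with KCl. In cortex and striatum the microglial, endothelial and housekeeping means overlapped between treatments. The part of these markers in the hippocampus and striatum effects was not tested. Since profiles carry no level, the presence of neuronal markers could not be checked in absolute terms.

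TAPEs and the genes near them were then set side by side, both measured in the same RNA. The nearest gene was called higher for 14 of 47 risers (29.8%) and for 11.7% of all tested TAPEs with a recovered nearest gene, and called lower for 9 of 37 fallers (24.3%) beside 15.4%. Within 100 kb, 20 of the 33 risers with a recovered gene there had a gene called higher (60.6%, beside 21.9% of all), and 15 of 32 fallers had one called lower (46.9%, beside 37.3%). The other way round, 11 of the 33 risers had a gene called lower (33.3%) and 6 of the 32 fallers one called higher (18.8%). These are counts of TAPEs, and several risers can share a gene, as at Fos and Mn1. Fallers had more genes within 1 Mb, 24 at the median beside 14 for all tested TAPEs, and the part of this in the counts was not tested. The gene calls rest on the uncentred profiles. At the TAPEs 13.4 kb from Fos, 14.8 kb from Nr4a1 and 10.3 kb from Fosb, the best-correlated gene in the deposited table was the nearest one, with r of 0.948, 0.882 and 0.650 over the 19 libraries. For the TAPE 37.8 kb from Fos it was Dlst at 326 kb (r = 0.790), a mitochondrial enzyme gene with an adjusted p of 0.562, whereas r with Fos was 0.703. For the TAPE 24.8 kb from Nr4a1 it was Grasp (r = 0.874), which rose by 1.37 SD (adjusted p = 0.00535), whereas r with Nr4a1 was 0.743. For the Sik1 TAPE it was Rrp1 at 359 kb (r = 0.898), whereas r with Sik1 was 0.844. The Mn1 TAPE had r = 0.860 with Mn1, which rose by 0.78 SD (adjusted p = 0.00184). The Myo3a TAPE had r = 0.853 with Myo3a, whose KCl difference was 0.15 SD in cortex, -0.34 in hippocampus and 1.11 in striatum (adjusted p = 0.196). These r values include differences between regions as well as between treatments.

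Promoter windows of the responding genes were read from RefSeq (GRCr8, 250 bases before to 50 after the annotated start), which had an entry for 12157 of the recovered genes and 42 of the recovered activity genes. The cAMP response element (CRE), bound by CREB, was searched as its core TGACG on both strands and as the whole element, in which TCA follows the core directly. The core was present in 52.0% of the windows of 802 genes that were higher with KCl, 27.3% of 2018 that were lower and 28.5% of all 12157. For the 42 activity genes it was 64.3%. The whole element was found in 9.23% of higher, 2.08% of lower, 19.0% of activity and 2.77% of all windows. Over all 27457 windows of the table the shares were 22% and 1.91%. Since the motif contains CG, windows were also divided into 4 equal bins by guanine and cytosine content. Higher genes had a core in 37.6, 53.9, 59.8 and 50.3% of windows from the lowest to the highest bin, and all genes in 19.0, 29.1, 35.5 and 30.8%. The AP-1 site TGANTCA was present in 4.86% of higher, 5.40% of all and 0 of the 42 activity windows, and the CArG box, bound by serum response factor, in 1.87% and 1.26%, with 9.52% of activity windows.

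**Figure D5:**
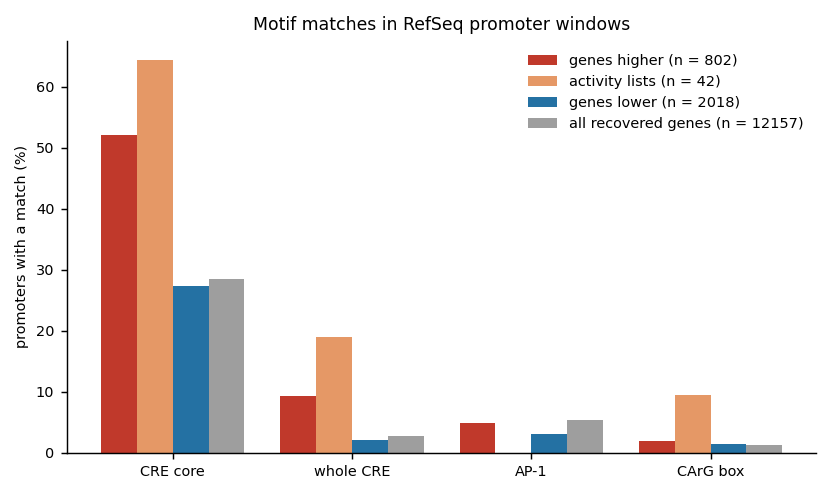
Share of RefSeq promoter windows with at least 1 match to each motif (y axis, percent), for genes higher with KCl, activity genes, genes lower with KCl and all recovered genes with a window. The CRE core is present in 52.0% of higher and 28.5% of all windows, while the AP-1 site is present in 4.86% and 5.40%.

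The windows of Nr4a1 and Junb are printed because both genes and TAPEs near them rose. Capitals mark CRE cores on either strand, 4 in Nr4a1 (from bases 5, 25, 169 and 198) and 1 in Junb (from base 96). A match is a description of letters only.
Nr4a1, GRCr8 chr7:134259888-134260187, + strand: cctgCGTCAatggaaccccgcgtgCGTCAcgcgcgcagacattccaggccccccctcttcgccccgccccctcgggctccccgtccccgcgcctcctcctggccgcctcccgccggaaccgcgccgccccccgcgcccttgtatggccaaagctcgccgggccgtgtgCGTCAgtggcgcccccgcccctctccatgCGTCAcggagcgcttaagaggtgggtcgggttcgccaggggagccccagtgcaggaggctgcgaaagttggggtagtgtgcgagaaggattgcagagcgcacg
Junb, GRCr8 chr19:40080876-40081175, + strand: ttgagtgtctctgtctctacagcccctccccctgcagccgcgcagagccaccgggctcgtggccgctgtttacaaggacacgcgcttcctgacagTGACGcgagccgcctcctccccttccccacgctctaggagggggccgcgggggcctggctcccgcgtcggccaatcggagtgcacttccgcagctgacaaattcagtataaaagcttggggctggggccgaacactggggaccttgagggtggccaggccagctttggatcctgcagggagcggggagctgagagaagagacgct
The windows of Fosb and Sik1, the other responding loci with an entry, held 0 and 2 cores.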

How the data were processed

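Cultured rat neurons were profiled by total RNA-seq in 19 libraries. Their depths of 46.4 to 72.5 M reads were inferred from the spacing of the deposited CPKM values. The paper states fewer reads per sample, and the reason for the difference was not tested. Per the study's methods, the authors trimmed reads with Trim Galore (0.4.5 in the submitters' processing notes), aligned them to Rn6 with STAR, merged lanes with SAMtools (1.9), defined TAPEs on pooled ATAC-seq and RNA-seq data and quantified them in SeqMonk. The deposited TAPE values are CPKM, an RPKM in which the authors divided reads by TAPE length and library reads. The deposited correlations are a score, the Pearson r of TAPE and gene CPKM.

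Groups were taken from sample titles. Values were analysed as log2(CPKM + 0.05), centred on each library's median over TAPEs with a mean of at least 0.05 CPKM, and fitted with treatment and region in limma 3.58.1 (eBayes with trend, R 4.3.3, two-sided, Benjamini-Hochberg). An F-test of the interaction compared regions. CPKM times length and the inferred depth gave whole reads (within 0.05) for 100% of values, and 47431 to 83272 reads so recovered lay in TAPEs. Mean depth per TAPE is therefore low, and reads are not independent molecules, since mates and PCR copies are counted. A gene's standardised profile was solved from its deposited correlations with TAPEs, and failed for 1148 genes with too few TAPEs and 68 with several positions. Gene profiles were tested by an exact permutation over 14000 arrangements within regions, two-sided. With libraries as replicates, p-values measure only the spread between these samples. Scripts were tested on simulated data.

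Named were the 14 risers and 10 fallers of smallest adjusted p, TAPEs called for a regional difference, and up to 12 within 100 kb of an activity gene. The comparison, lists and naming rule were chosen with earlier results of these data known. No genome of the files' build was used here, so TAPE sequences are not shown.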

Additional observations from a re-analysis of the deposited data

Results flagged for a closer look

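The TAPE at chr4:77413446-77416130 was singled out because its KCl effect differed between regions (limma interaction, adjusted p = 1.17e-05), with 2.30 in cortex, 2.12 in hippocampus and -0.00 in striatum on the log2 scale. Among the 4 striatum vehicle libraries of the 30 named TAPEs, 2 sets of values held a library far from the rest. At chr10:90188422-90190566, vehicle replicate 6 had 0 CPKM beside a group median of 0.0325. At chr4:66977035-66981159, vehicle replicate 4 had 0.147 CPKM beside a median of 0.0719. Chance alone sets apart about 1 in 20 such groups, and 30 were examined.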

How the results depend on the processing

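Counts of 47 risers and 37 fallers moved with several choices. Without centring they were 31 and 97, with a pseudocount of 0.01 they were 30 and 17, and with limma voom on the recovered reads 43 and 96. Without a filter, 1187 and 45 of 27538 TAPEs were called, because centring shifts TAPEs with no reads by a library's constant. Without filter or centring, a version added after the data were seen, 26 and 29 were called. No mean-variance trend left 42 and 21, region as a random block 34 and 22, and region not in the model 16 and 4. Single regions gave 10 and 0 (cortex, with 189 TAPEs at an unadjusted p under 0.05), 3 and 1 (hippocampus) and 19 and 4 (striatum). Without cortex 35 and 16 were called, without hippocampus 30 and 13, without striatum 24 and 6. The other alternatives, run over the same or a stricter set, gave 33 to 57 risers and 31 to 45 fallers.

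Without 1 library, risers ranged from 31 to 47, fallers from 17 to 33 and TAPEs differing between regions from 1 to 2. Fallers were fewer by over 1.5 times without cortex vehicle replicate 1 (24), hippocampus vehicle replicate 2 (22), striatum vehicle replicate 8 (23), striatum KCl replicate 1 (17) and striatum KCl replicate 5 (19). With the replicate number as a block in cortex and hippocampus, and striatum as a single block, 37 and 24 were called. In cortex and hippocampus, deviations of KCl and vehicle libraries with the same number correlated at -0.04 to 0.01. Striatum has no KCl and vehicle library with the same number. At this low depth per TAPE such values cannot decide whether the numbers pair libraries. TAPEs differing between regions numbered 13 with a pseudocount of 0.5, 2 without a filter and 4 with voom, beside 1.

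Genes called lower numbered 1250 without hippocampus. Without striatum 0 and 0 genes were called, since 400 arrangements cannot reach the threshold after adjustment, although 3438 had an unadjusted p under 0.05. The sign turned 3 times in single regions, to -0.000903 at chr4:77413446 in striatum, to -0.0996 at chr7:142879678 in hippocampus and to -0.11 at chr6:109280836 in cortex. For the 27 named TAPEs that were called, 428 of the other values, not counting those without 1 library, kept the call and 102 lost it. For the 3 that were not called, 49 stayed so and 9 were called. Depth limits the test to 1870 TAPEs, and absence of a call elsewhere says nothing of change.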
